A study of Mus musculus with 91 samples.

Results

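The smooth muscle contractile genes are 10 genes whose proteins build and regulate the contractile apparatus of smooth muscle: *Acta2*, *Actg2*, *Myh11*, *Myl9*, *Mylk*, *Tpm2*, *Cald1*, *Cnn1*, *Tagln* and *Des*. They were chosen by symbol among array transcript clusters annotated to a single gene, out of 19938 such genes, and each of the 10 had 1 cluster. Their transcripts were measured in sorted cells of the fetal mouse gonad at 3 stages, E11.5, E12.5 or E13.5, and 72 arrays are described here, in 24 groups of 3 by sorted cell type, XX or XY karyotype and stage.

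Each cell type was sorted by a fluorescent reporter, from pools of 1 or more litters. The aSma-EYFP embryos, labelled FVB and kept as a mix of FVB and CD-1 according to the methods, carried Tg(Acta2-EYFP)Jll and expressed EYFP from sequence of *Acta2* itself. Endothelial cells came from Flk1-mCherry, Tg(Kdr-mCherry)1Medi on CD-1, and germ cells from Oct4-EGFP, Tg(Pou5f1-EGFP)2Mnn. Supporting cells came from Sry-EGFP, Tg(Sry-EGFP)92Ei, in all XX groups and in XY at E11.5, and from Sox9-ECFP, Tg(Sox9-ECFP)2Capl, in XY at E12.5 and E13.5. The last 3 lines were crossed between CD-1 and C57BL/6J. Reporter, line and strain cannot be told apart, and neither can the change of supporting cell line and the step from E11.5 to E12.5 in XY. According to the study, SRY or SOX9 staining overlapped with aSma-EYFP at E11.5, and XY Flk1-mCherry sorts held Leydig cells at E12.5 and E13.5. Flk1-mCherry sorts kept part of the mesonephros at E11.5. Oct4-EGFP sorts kept it attached, with no stage named. A single further array of whole newborn mice, labelled P0, served as a reference with no replicate.

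Smooth muscle shortens when myosin filaments pull on actin filaments. *Acta2* and *Actg2* encode the vascular and enteric smooth muscle actins, *Myh11* the smooth muscle myosin heavy chain, *Myl9* a regulatory light chain and *Mylk* the kinase that phosphorylates that light chain. *Tpm2* (tropomyosin), *Cald1* (caldesmon), *Cnn1* (calponin) and *Tagln* (transgelin) bind actin, and *Des* encodes the intermediate filament protein desmin. Several of them, *Myl9*, *Mylk*, *Tpm2* and *Cald1* among them, also serve non-muscle cells, and many are bound by serum response factor (SRF) with myocardin at a short element, the CArG box. In the testis, smooth muscle proteins are best known from the peritubular myoid cells that surround the cords and from the walls of vessels.

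The 250 bases before the start site of *Acta2*, the gene that drives the reporter, and of *Myl9*, the member whose level moved most, are shown from RefSeq on GRCm38.p6. *Acta2* lies at chr19:34255374-34255623 on the minus strand, and *Myl9* at chr2:156775214-156775463 on the plus strand. Capitals mark runs of 10 letters that equal the CArG box or depart from it at 1 letter, and the element reads the same way on both strands.
Acta2: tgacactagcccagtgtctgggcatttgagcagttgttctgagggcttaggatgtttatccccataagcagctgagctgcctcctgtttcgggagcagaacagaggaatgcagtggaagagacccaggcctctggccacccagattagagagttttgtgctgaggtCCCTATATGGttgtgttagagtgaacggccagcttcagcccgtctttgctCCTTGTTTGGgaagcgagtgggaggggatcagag
Myl9: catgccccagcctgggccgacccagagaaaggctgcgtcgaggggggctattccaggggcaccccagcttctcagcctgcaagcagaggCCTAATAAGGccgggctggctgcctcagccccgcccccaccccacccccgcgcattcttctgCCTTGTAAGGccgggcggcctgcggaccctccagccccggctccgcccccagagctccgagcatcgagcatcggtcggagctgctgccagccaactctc
The *Acta2* window held no exact CArG box and 2 runs with 1 departure, which began 84 and 34 bases before the start site. The *Myl9* window held 1 exact CArG box, beginning 161 bases before the start, and 1 run with a single departure at 99 bases. An exact box lay in 1.47% of 32851 RefSeq windows of this length. At least 1 run of either kind lay in 18.6% of them, and 2.96% held at least 2. No marked runs overlapped. Of the 7 members with a window, *Cald1* was the only other one with a marked run, of 1 departure in 1 of its 2 windows, and *Cnn1*, *Des*, *Mylk* and *Tpm2* had none. *Tagln*, *Myh11* and *Actg2* were not in the table.

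All 10 members passed the filter on low values and entered a fit over 16859 clusters. A difference was called at an adjusted p under 0.05. Values are log2 intensities, so that a difference of 1 is a change of 2-fold, levels are compared only within a gene, and values under 6 lie below the detection limit that the study used. Differences from groups near 6 may therefore be too small. In a sorted population, fewer cells of a type and less RNA per cell cannot be told apart. Median intensities of the 72 arrays ran from 6.56 to 6.81, and the number of arrays limits the precision. The sorts carried their own markers: the mean of 8 endothelial markers was 9.87 to 10.79 in Flk1-mCherry arrays of E13.5 and 6.26 to 6.53 in those of aSma-EYFP, and the mean of 6 interstitial markers was 9.30 to 10.32 in every aSma-EYFP array against 6.88 to 7.81 in supporting cells.

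Most of the contractile genes had their highest means in the cells sorted by the *Acta2* reporter. Over the 60 combinations of gene, karyotype and stage, the highest of the 4 cell types was aSma-EYFP in 52, supporting cells in 5 and Flk1-mCherry in 3. The 5 were *Myl9* in 4 combinations and *Myh11* in 1, and the 3 were *Mylk* in 2 and *Actg2* in 1. Of the 52, *Acta2* made 6, which follow from the sort. *Actg2* made 5, with aSma-EYFP means of 6.09 to 6.69, near the detection limit. This ranking was not tested, and the share of all clusters highest in aSma-EYFP was not counted. Against supporting cells, 42 of 60 differences of aSma-EYFP were called, each of them higher, where 26.3% of all clusters were called over the same 6 contrasts, 13.7% higher and 12.6% lower. In fits of only the groups compared 44 were higher and 3 lower, and the 3 were *Myl9* at E11.5 in both karyotypes and in XX at E13.5 (adjusted p = 0.0109, 0.0384 and 0.00284). Against Flk1-mCherry, 47 were called, 46 of them higher and 1, *Mylk* in XX at E11.5, lower by 0.42 on the log2 scale, beside 33.0% of all clusters, 18.3% higher and 14.7% lower. The *Mylk* call was lost without XX aSma-EYFP array 3 (-0.31, adjusted p = 0.111). Both comparisons share the aSma-EYFP arrays, so that they are not separate pieces of evidence. *Acta2*, whose sequence drives the reporter, was highest in aSma-EYFP in all 6 combinations of karyotype and stage and called higher in all 6 contrasts of each comparison. These counts of *Acta2* follow from the sort itself and say nothing of the other members. The median difference of the 10 genes between aSma-EYFP and supporting cells was 0.67 to 1.21 over the 6 contrasts, and that of all tested clusters -0.05 to 0.00.

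**Figure D1:**
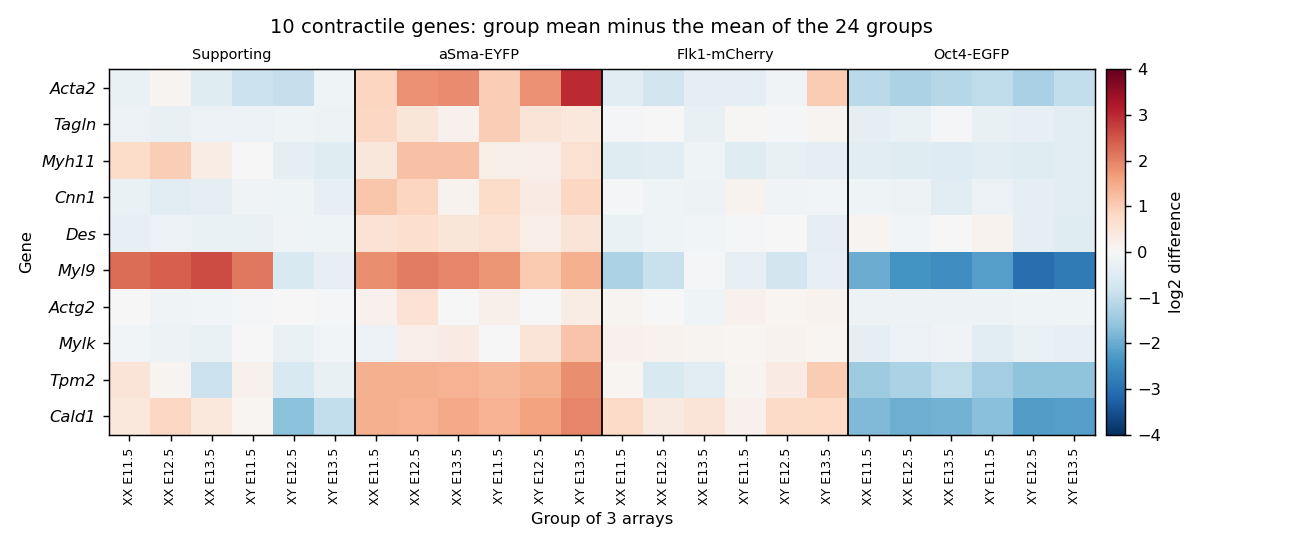
Each row is 1 of the 10 contractile genes and each column 1 group of 3 arrays, ordered by sorted cell type, karyotype and stage. Colour gives the group mean minus the mean of the 24 groups of that gene on the log2 scale: *Acta2*, *Tpm2* and *Cald1* are high in the 6 aSma-EYFP groups, *Myl9* also in 4 of 6 supporting cell groups, while the group means of *Actg2* vary least, over a range of 0.80.

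Over the 4 cell types and 3 stages, 21 of 120 XY-XX differences of the members were called, beside 10.6% of all clusters. Of these 21, 5 were higher in XY and 16 lower. Among the lower calls, 5 at E12.5 and 3 at E13.5 set Sox9-ECFP against Sry-EGFP cells. The balance depended on the setting, since array weights called 29, with 12 higher and 17 lower. In aSma-EYFP at E13.5 these weights added higher calls for *Acta2*, *Tagln*, *Cnn1*, *Tpm2* and *Cald1*. The other settings gave 5 to 7 higher and 14 to 16 lower. Of the differences between successive stages, 15 of 160 were called, 7 higher and 8 lower, beside 5.90% of all clusters. The XY-XX difference itself changed between E11.5 and E13.5 for 5 of 40 combinations of member and cell type, beside 7.70%.

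Against the whole newborn mouse, 6 of the 10 genes never reached the reference level in any of the 72 arrays. *Cnn1* read 9.54 in that array and at most 7.42 as a mean of any sorted group, *Actg2* 10.22 and 6.69, *Des* 9.12 and 6.80, and *Tpm2* 12.12 and 10.11. *Myh11* read 9.54 there and at most 8.71 in a group, and *Tagln* 8.02 and 7.60. The other 4 exceeded the reference in some arrays: *Myl9* in 26, *Cald1* in 20, *Mylk* in 11 and *Acta2* in 2. Whole newborns hold gut, bladder, vessel and striated muscle, and the comparison rests on 1 array without a test.

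*Acta2* was called higher in aSma-EYFP than in supporting and Flk1-mCherry cells in all 6 combinations of karyotype and stage. The XX values of E11.5 were the least secure, and the call over supporting cells there (1.13, adjusted p = 0.0164) was lost without array 3 of aSma-EYFP (0.97, adjusted p = 0.0934) or of Sry-EGFP (0.89, 0.112), and that over Flk1-mCherry (1.29, adjusted p = 0.00551) without Flk1-mCherry array 3 (0.90, 0.103). In XY aSma-EYFP cells *Acta2* read 7.88, 8.23 and 7.49 at E11.5, then 9.14, 8.39 and 8.57 at E12.5, and 9.49, 9.97 and 10.15 at E13.5. The arrays of E11.5 and E13.5 stood apart, and 2 of the latter lay above the 9.83 of the whole newborn. In XX they read 7.32, 7.83 and 8.07 at E11.5, then 8.33, 9.46 and 8.35 at E12.5, and 8.31, 8.74 and 9.25 at E13.5. The rise from E11.5 to E13.5 was 2.00 (95% interval 1.25 to 2.75, adjusted p = 5.57e-05) in XY. In XX the same difference was 1.02 (0.27 to 1.77) and was not called in the fit of all groups (adjusted p = 0.0989). It was called in a fit of these 2 groups alone (adjusted p = 0.0325) and with array weights (1.19, adjusted p = 0.00391). The change of the XY-XX difference from E11.5 to E13.5 in aSma-EYFP cells was called for 0 of the 10 members, beside 2.12% of all clusters. With array weights it was called for *Mylk* (0.60, adjusted p = 0.0103) and *Cnn1* (0.92, adjusted p = 0.0379). The steps between neighbouring stages were not called for *Acta2* in any sort in the fit of all groups. Array weights called those to E12.5 in XX and to E13.5 in XY aSma-EYFP cells (adjusted p = 0.013 and 0.0033). The step to E13.5 in XY Flk1-mCherry cells was called with array weights (adjusted p = 1.89e-05) and quantile normalization (0.0452). The 8 comparisons of E13.5 with E11.5 were added after the values had been seen. Over them, 20 of 80 member differences were called, beside 15.1% of all clusters.

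**Figure D2:**
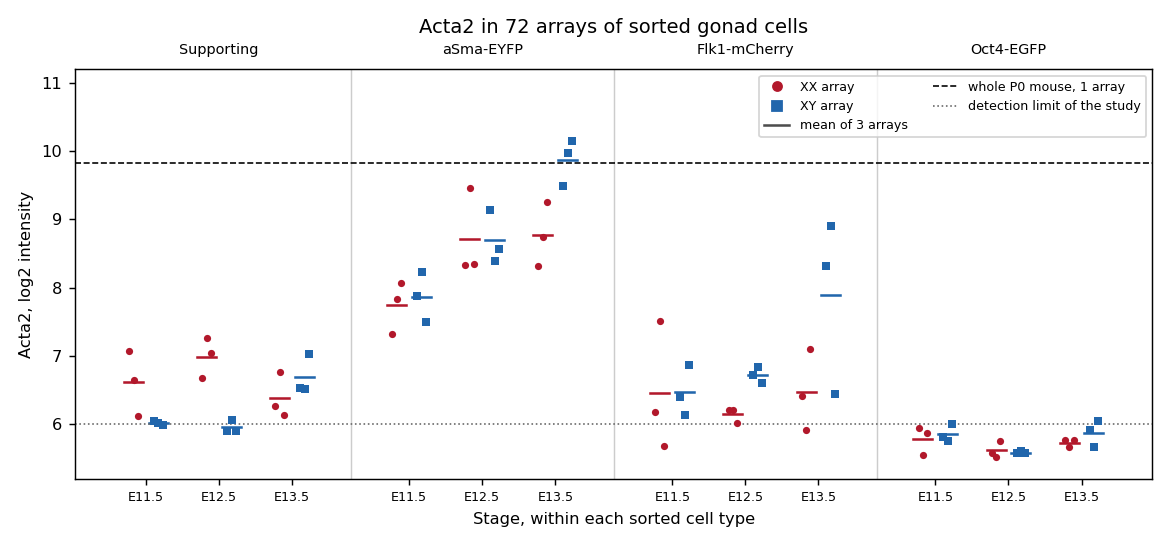
*Acta2* log2 intensity in each of the 72 arrays, by sorted cell type and stage, with XX arrays as circles, XY arrays as squares and bars at the means of 3. The dashed line is the whole P0 mouse (9.83) and the dotted line the detection limit of 6. The XY arrays of aSma-EYFP rise from E11.5 to E13.5 by 2.00, the Oct4-EGFP arrays stay at or below 6.05, and the 3 XY Flk1-mCherry arrays of E13.5 spread from 6.44 to 8.90.

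The order of *Acta2* levels put XY aSma-EYFP E13.5 first (mean 9.87) and XX aSma-EYFP E13.5 next (8.77). Between these neighbours the difference was 1.10 (0.35 to 1.85) with every XY array above every XX array, and it missed the threshold (adjusted p = 0.0715), which it passed without XX array 3 (1.35, adjusted p = 0.0466). It also passed in a fit of these 2 groups alone (adjusted p = 0.0321) and with array weights (1.16, adjusted p = 0.00244). Supporting cells lay at 5.90 to 7.26 in every array and germ cells at 5.52 to 6.05. In supporting cells of E12.5 the XX arrays read 6.67, 7.26 and 7.04 and the XY arrays 5.90, 6.06 and 5.90, a difference of -1.04 (adjusted p = 0.0262) that lost its call without any of 4 of the 6 arrays (adjusted p 0.0629 to 0.106) and with the replicate number as a block (adjusted p = 0.0675).

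*Actg2*, the enteric actin, stayed near the detection limit. In every array but 1 it lay between 5.75 and 6.53. The exception was XX aSma-EYFP array 2 of E12.5, which read 7.95 beside 6.05 and 6.07 in the other arrays of the group. That array was also the highest of its group for 9 of the 10 members, with *Acta2* at 9.46, *Cnn1* at 7.80 and *Des* at 7.12. Among markers of mural cells, *Angpt2*, picked after its values were seen, read 7.27 there against 5.70 and 6.21, the mean of 10 mural markers was 7.61 against 7.29 and 7.45, and that of 18 striated muscle genes 7.36 against 7.18 and 7.35. Their part in the *Actg2* value was not tested. The called XY minus XX difference of *Actg2* at E12.5 was -0.59 (adjusted p = 0.0353), without that array 0.03 (adjusted p = 0.991), without XY array 1 or 2 -0.57 and -0.53 (adjusted p = 0.129 and 0.181), and with the replicate number as a block not called (adjusted p = 0.0682). The calls over supporting and Flk1-mCherry cells, 0.74 and 0.57 (adjusted p = 0.0013 and 0.00863), went the same way, to 0.11 and -0.06 (adjusted p = 0.484 and 0.7).

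The myosin genes followed karyotype as well as cell type. *Myh11* was higher in XX than in XY in 5 of 12 comparisons and in none was it called lower. In aSma-EYFP cells of E12.5 the XX arrays read 8.71, 8.93 and 8.49 and the XY arrays 7.82, 7.89 and 7.70, with no overlap. The difference was -0.91 (interval -1.14 to -0.67, adjusted p = 1.71e-08). At E13.5 the XX arrays read 8.51, 8.62 and 8.94 and the XY arrays 7.95, 8.13 and 8.30, again apart, with a difference of -0.57 (adjusted p = 0.000394). The other 3 comparisons were those of supporting cells. In the same aSma-EYFP arrays the mean of 6 supporting cell markers was 7.49 to 7.65 in XX and 7.21 to 7.50 in XY at E12.5, which overlapped. At E13.5 it was 7.43 to 7.52 and 7.07 to 7.21. The 6 include genes enriched in supporting cells of 1 karyotype, such as *Dhh* in XY and *Wnt4* in XX. Their mean is therefore no measure of supporting cell content across karyotypes. The part of supporting cells in the XY-XX differences of *Myh11*, and of *Myl9* at E12.5, was not tested. In XX aSma-EYFP cells *Myh11* rose from E11.5, where it read 8.15, 8.04 and 7.73, to E12.5 by 0.74 (adjusted p = 1.33e-05). Flk1-mCherry and Oct4-EGFP arrays lay between 6.93 and 7.61.

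*Mylk*, the light chain kinase, had its only XY-XX call in aSma-EYFP cells of E13.5, where it was higher in XY. In XY aSma-EYFP cells it read 7.19, 7.44 and 7.15 at E11.5, then 7.74, 8.03 and 7.66 at E12.5, and 8.55, 8.61 and 8.17 at E13.5, with no overlap between stages. In XX it read 7.15, 7.16 and 6.84 at E11.5 and 7.50, 7.81 and 7.53 at E13.5, where every XY array lay above every XX array. The XY minus XX difference at E13.5 was 0.83 (interval 0.57 to 1.09, adjusted p = 2.14e-06). At E12.5 the means were 7.81 in XY and 7.56 in XX, not called. *Mylk* rose from E11.5 to E13.5 by 1.19 (0.92 to 1.45, adjusted p = 1.05e-10) in XY and by 0.57 (adjusted p = 0.00206) in XX, and the latter was lost without XX array 3 of E11.5 (0.46, adjusted p = 0.0505). Fetal Leydig markers were high in the same XY arrays: their mean over 4 genes was 8.32 to 8.54 in XY aSma-EYFP cells of E13.5, against 5.66 to 5.79 in XX. Their part in the differences of *Mylk* and *Acta2* was not tested. *Myl9*, which encodes a light chain, was lower in XY than in XX aSma-EYFP cells at E12.5 by 1.01 on the log2 scale (adjusted p = 0.0371), a call that was lost without any of its 6 arrays (-0.94 to -1.06, adjusted p 0.0771 to 0.139).

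**Figure D3:**
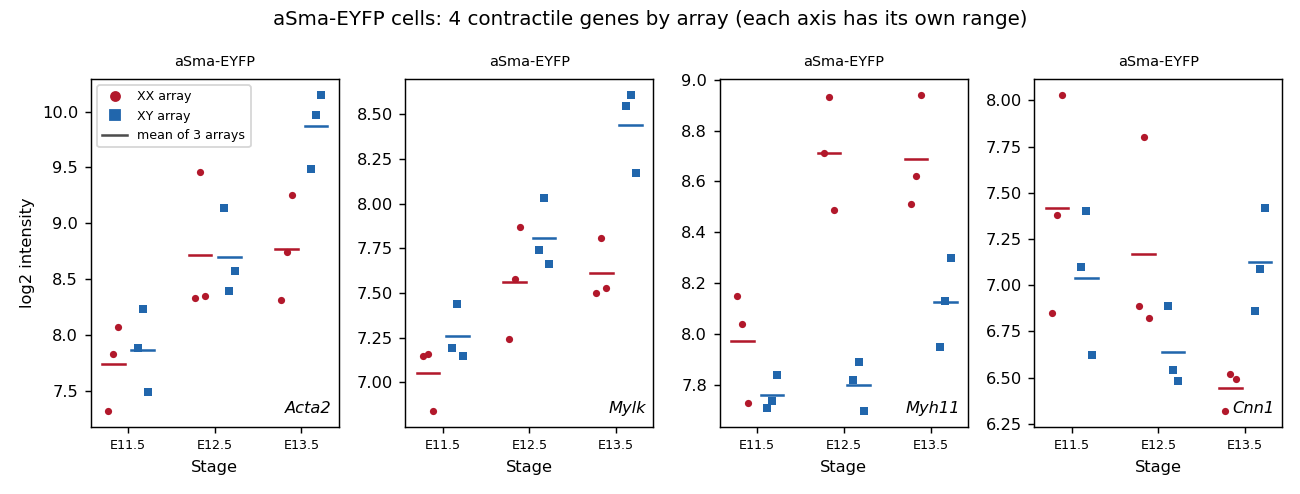
Log2 intensity of *Acta2*, *Mylk*, *Myh11* and *Cnn1* in each aSma-EYFP array by stage, with XX as circles, XY as squares and bars at the means of 3; the axes have different ranges. *Acta2* and *Mylk* rise to means of 9.87 and 8.44 in XY at E13.5, *Myh11* separates XX above XY at E12.5 and E13.5, and *Cnn1* in XX falls from E11.5 to E13.5.

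Among the actin-binding genes, *Tpm2* and *Cald1* marked the aSma-EYFP sort most evenly. *Cald1* lay between 10.83 and 11.54 in its arrays, and *Tpm2* between 9.28 and 10.23. Both were called higher in aSma-EYFP than in supporting and Flk1-mCherry cells in every one of the 6 combinations of karyotype and stage. The largest difference of any member was *Cald1* against supporting cells in XY at E12.5, with arrays of 11.04, 11.27 and 11.22 against 7.96, 8.09 and 7.64 and a difference of 3.27, or 9.67-fold. The smallest of *Cald1*, 0.55 over supporting cells in XX at E12.5 (adjusted p = 0.0128), was lost without aSma-EYFP array 2 (0.51, adjusted p = 0.0508) or Sry-EGFP array 1 (0.48, 0.0713). *Tpm2* differed from supporting cells by 0.93 in XX at E11.5 to 2.27 in XX at E13.5, where the arrays read 9.50, 9.76 and 9.74 against 7.33, 7.44 and 7.42. Over Flk1-mCherry in XY at E13.5 it differed by 0.84 (adjusted p = 0.000503), a call lost without Flk1-mCherry array 3 (0.52, adjusted p = 0.0594) and in a fit of these 2 groups alone (adjusted p = 0.0564).

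*Cnn1* and *Tagln*, which encode calponin and transgelin, were lower at E13.5 than at E11.5 in some aSma-EYFP groups. In XX *Cnn1* went from 6.85, 7.38 and 8.03 at E11.5 to 6.32, 6.52 and 6.49 at E13.5, without overlap. The difference was -0.98 (interval -1.49 to -0.47, adjusted p = 0.00846), and without array 3 of E11.5 it was -0.67 and no longer called (adjusted p = 0.206). In XY *Cnn1* read 7.10, 7.40 and 6.62 at E11.5 and 6.86, 7.09 and 7.42 at E13.5, and these arrays overlapped. *Tagln* read 7.34, 7.18 and 7.82 in XX aSma-EYFP cells of E11.5 and 6.65, 6.83 and 6.89 at E13.5, with no overlap. It fell from E11.5 to E13.5 by 0.66 on the log2 scale in XX (adjusted p = 0.00454) and by 0.54 in XY (adjusted p = 0.0188). The XX value was lost without array 3 of E11.5 (-0.47, adjusted p = 0.137), and the XY value without array 1 of E11.5 (-0.40, adjusted p = 0.213) or of E13.5 (-0.34, adjusted p = 0.322) and in a fit of these 2 groups alone (adjusted p = 0.117). *Des* stayed between 6.20 and 7.12 in aSma-EYFP cells and between 5.54 and 6.42 in Flk1-mCherry cells, with no call between stages in either.

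Supporting cells, which form the Sertoli and granulosa lineages, held the highest *Myl9* of the 4 cell types in XX at each stage and in XY at E11.5. In XX the arrays read 11.78, 11.73 and 11.79 at E11.5, 12.05, 11.80 and 11.93 at E12.5, and 12.27, 12.07 and 12.15 at E13.5. In XY they read 11.67, 11.59 and 11.66 at E11.5, then 8.49, 8.86 and 9.44 at E12.5 and 9.58, 9.07 and 8.95 at E13.5. XX and XY were close at E11.5, and afterwards every XY array lay more than 2 log2 units below every XX array. The XY minus XX difference was -0.13 at E11.5, -3.00 (interval -3.62 to -2.38, adjusted p = 1.05e-12) at E12.5 and -2.96 (-3.58 to -2.34, adjusted p = 1.81e-12) at E13.5, or 8.00-fold and 7.78-fold. Within XY *Myl9* fell by 2.71 on the log2 scale from E11.5 to E12.5 (adjusted p = 1.11e-10), across the change from Sry-EGFP to Sox9-ECFP. The XY-XX differences of E12.5 and E13.5 also set Sox9-ECFP against Sry-EGFP cells, so that karyotype and line cannot be told apart.

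*Cald1* and *Myh11* were lower in XY supporting cells too, where at E12.5 and E13.5 the line again differed with the karyotype. *Cald1* read 10.24, 10.56 and 10.35 in XX and 7.96, 8.09 and 7.64 in XY at E12.5, a difference of -2.48 (adjusted p = 3.87e-20), and -1.41 (adjusted p = 1.91e-10) at E13.5. *Myh11* differed already at E11.5, where both karyotypes came from Sry-EGFP, with 8.27, 8.33 and 8.15 in XX and 7.45, 7.55 and 7.65 in XY (difference -0.70, adjusted p = 5.84e-06). At E12.5 that difference was -1.37 (adjusted p = 7.02e-16) and at E13.5 -0.77 (adjusted p = 1.66e-07). *Tpm2* turned direction: XY was lower at E12.5 by 0.73 on the log2 scale (adjusted p = 0.00203) and higher at E13.5 by 0.56 (adjusted p = 0.0197). Between these stages the XX mean went from 8.37 to 7.40 and the XY mean from 7.64 to 7.96. The XX step of -0.98 lost its call in a fit of these 2 groups alone (adjusted p = 0.139). In XX the arrays went from 8.58, 9.06 and 8.68 at E11.5 to 7.33, 7.44 and 7.42 at E13.5, a change of -1.38 (adjusted p = 6.03e-08). The XY-XX call of *Tpm2* at E13.5 was lost without array 1 of XX (0.53, adjusted p = 0.0608) or of XY (0.54, adjusted p = 0.0588). *Tagln*, *Cnn1*, *Des*, *Actg2* and *Mylk* were not called between XX and XY supporting cells at any stage. In supporting cells 32.3% of all clusters were called at E12.5 and 30.9% at E13.5, beside 5 and 4 of the 10 members. The mean of 6 interstitial markers in these arrays was 7.13 to 7.30 in XX and 6.88 to 7.34 in XY at those stages, and the mean of 6 supporting markers 8.05 to 8.16 and 8.27 to 8.41. That of 4 fetal Leydig markers was 6.04 to 6.20 in XY at E12.5 and 6.92 to 7.27 at E13.5, against 5.70 to 5.84 in XX at those stages, and its part in the differences was not tested.

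**Figure D4:**
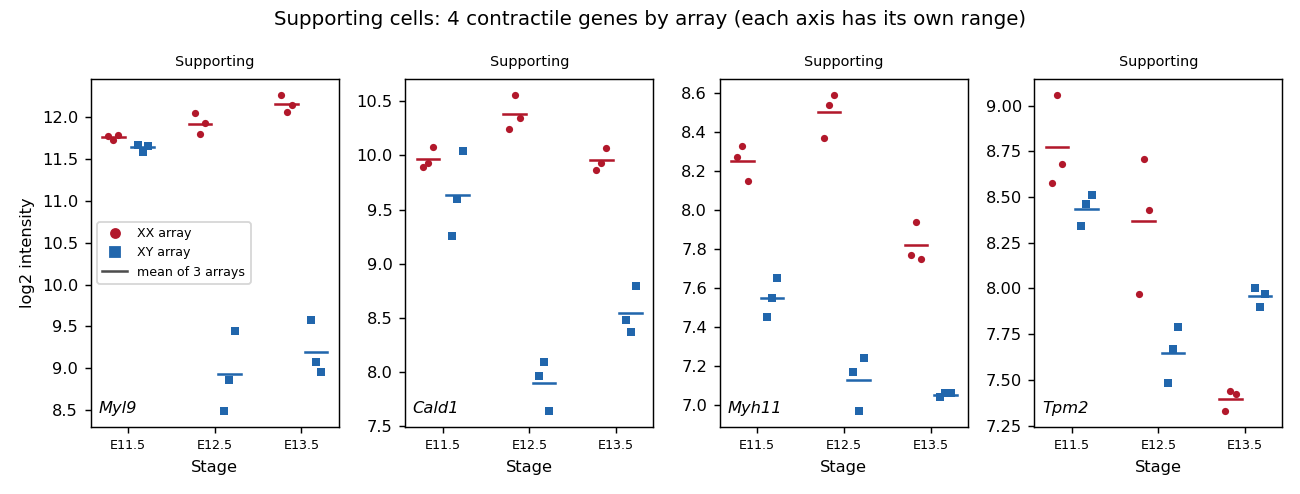
Log2 intensity of *Myl9*, *Cald1*, *Myh11* and *Tpm2* in each supporting cell array by stage, with XX as circles, XY as squares and bars at the means of 3; the axes have different ranges. *Myl9* and *Cald1* drop in XY between E11.5 and E12.5, *Myh11* is lower in XY at all 3 stages, and the order of XX and XY turns for *Tpm2* between E12.5 and E13.5.

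A question the aSma-EYFP sort raises is how many of the contractile genes went with the *Acta2* reporter when its cells are set beside supporting cells, a further somatic population of the same gonads. Of the 6 combinations of karyotype and stage, *Acta2*, *Tpm2* and *Cald1* were called higher in all 6, *Tagln* and *Des* in 5, *Cnn1* and *Mylk* in 4, *Myh11* in 3, *Myl9* in 2 and *Actg2* in 1. Of all clusters, 11.3% to 16.8% were called higher in each of these contrasts. *Acta2*, on which the sort itself rests, differed by 1.13 in XX at E11.5 to 3.18 in XY at E13.5. At E13.5 its aSma-EYFP arrays of 9.49, 9.97 and 10.15 in XY stood over 6.53, 6.52 and 7.02 in supporting cells. *Myl9* depended on karyotype: in XX it differed by -0.37, -0.34 and -0.68 over the successive stages, not called, and in XY by -0.32 at E11.5, not called, then by 1.65 (adjusted p = 1.81e-05) at E12.5 and 1.76 (adjusted p = 3.67e-06) at E13.5. *Myh11* was not called at E11.5 in either karyotype (-0.28 in XX and 0.22 in XY) and was higher in aSma-EYFP at E13.5 by 0.87 in XX and 1.07 in XY (adjusted p = 1.34e-08 and 8.25e-12). Without XX aSma-EYFP array 1 of E11.5, *Myh11* was called lower there (-0.37, adjusted p = 0.0284). The calls of *Mylk* in XX at E12.5 (0.46) and *Cnn1* in XY at E11.5 (0.89) were each lost without a single array, down to 0.31 (adjusted p = 0.13) without aSma-EYFP array 3 and to 0.71 (adjusted p = 0.0658) without aSma-EYFP array 2. As given above, single arrays also carried the calls of *Acta2* in XX at E11.5 and of *Cald1* and *Actg2* in XX at E12.5. The means of the interstitial markers given above separate these 2 sorts as well, and their part in the differences was not tested.

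**Figure D5:**
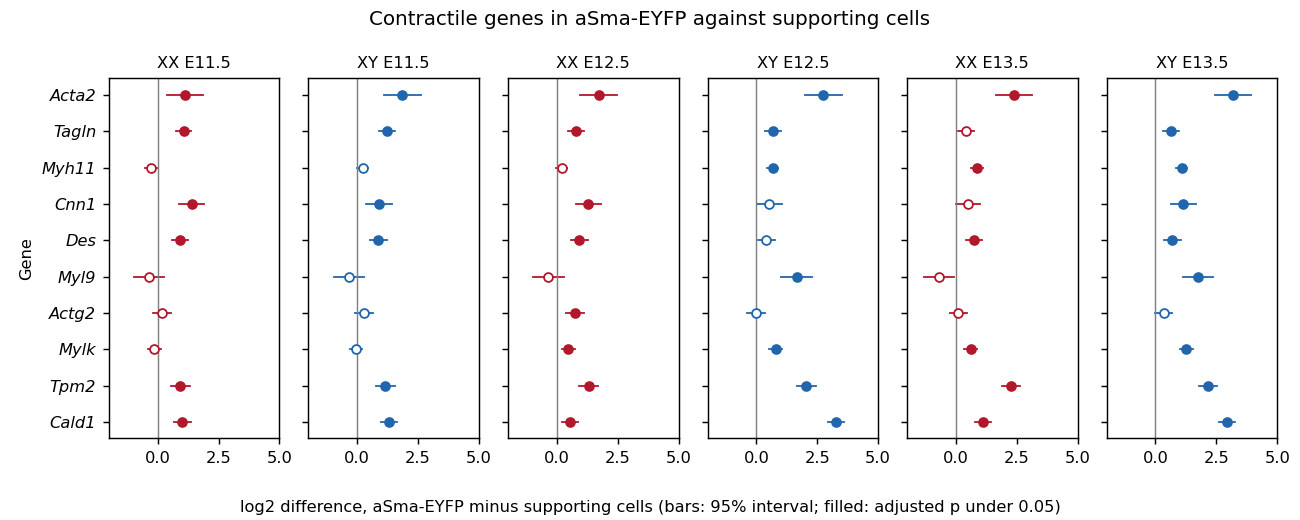
Difference between aSma-EYFP and supporting cells on the log2 scale for the 10 genes, in 6 panels by karyotype and stage, with 95% intervals and filled points where the adjusted p was under 0.05. *Acta2*, *Tpm2* and *Cald1* are filled in all 6 panels, *Acta2* runs from 1.13 to 3.18, and *Myl9* is filled only in XY at E12.5 and E13.5.

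In Flk1-mCherry cells, which in XY also held Leydig cells, *Tpm2* and *Acta2* were called higher in XY than in XX at E13.5. In XY Flk1-mCherry cells of E13.5 *Tpm2* read 9.45, 9.75 and 8.62, against 8.09, 7.25 and 8.19 in XX, a difference of 1.43 (interval 1.05 to 1.82, adjusted p = 4.88e-08). *Acta2* read 8.32, 8.90 and 6.44 in the same arrays against 6.41, 5.92 and 7.10, a difference of 1.41 (adjusted p = 0.0104) with overlapping arrays. Array 3 of the XY group was the lowest of the group for 9 of the 10 members. Markers of interstitial cells differed in the same order: their mean was 8.47, 9.44 and 7.75 in the 3 XY arrays and 7.89, 7.45 and 8.35 in XX, with *Dcn* at 8.32, 9.65 and 6.73 and *Pdgfra* at 8.33, 10.11 and 7.57 in XY, both picked after their values were seen. The mean of 10 mural markers took the same order, with 7.41, 7.51 and 7.04 in XY and 7.02, 6.99 and 7.47 in XX. The mean of 4 Leydig markers was 10.91, 10.46 and 10.75 in XY and 5.49 to 5.66 in XX, and that of 8 endothelial markers was 10.27, 9.87 and 10.45 in XY. Their part in the *Acta2* and *Tpm2* differences was not tested. The *Acta2* call was lost without XX array 2 (1.13, adjusted p = 0.12), XY array 1 (1.19, 0.109) or XY array 2 (0.90, 0.261), and a fit of these 2 groups alone called neither *Acta2* (adjusted p = 0.396) nor *Tpm2* (0.115). *Tpm2* was also higher in XY at E12.5, with 8.67, 8.34 and 8.73 against 7.58, 7.99 and 7.45 (difference 0.90, adjusted p = 0.00152, and 0.0601 in a fit of these groups alone).

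Germ cells were lowest for *Acta2*, *Myl9*, *Tpm2* and *Cald1* in all 6 combinations of karyotype and stage. At E13.5 *Tpm2* read 7.03, 7.18 and 7.52 in XX and 6.42, 6.82 and 6.69 in XY (difference -0.60, adjusted p = 0.0167), and *Des* 6.23, 6.08 and 6.08 against 5.81, 5.44 and 5.69 (-0.49, adjusted p = 0.0334). Both sets of arrays stood apart, but each call was lost without some single arrays, down to -0.46 for *Tpm2* (adjusted p = 0.146) and -0.38 for *Des* (0.185), and 22.7% of all clusters were called in this contrast.

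Other genes of smooth muscle and its regulators were measured beside the members. Of the 48 differences between aSma-EYFP and supporting cells of 8 regulators of SRF and myocardin activity, 13 were higher and 6 lower, beside the 13.7% and 12.6% of all clusters. *Srf* was higher in all 6 contrasts, by 1.60 in XX and 1.48 in XY at E11.5 (adjusted p = 6.24e-12 and 1.66e-10) and by 0.68 and 0.60 at E13.5 (adjusted p = 0.00124 and 0.00395). *Myocd*, the smooth muscle coactivator, read 6.89, 6.72 and 6.55 in XX and 6.36, 6.82 and 6.72 in XY aSma-EYFP cells of E13.5, against 5.61 to 5.79 in supporting cells of both karyotypes, differences of 1.04 and 0.96 (adjusted p = 7.96e-13 and 6.03e-12). *Gata6*, a transcription factor of mesenchyme, was lower in XY than in XX at E12.5 and E13.5 in supporting cells, by 1.13 and 1.09 on the log2 scale (adjusted p = 2.63e-09 and 7.33e-09), and in aSma-EYFP cells, where it was lower by 0.97 at E13.5 (adjusted p = 1.01e-06). *Mkl1*, a further SRF coactivator, was lower in XY supporting cells at each successive stage, by 0.68, 0.69 and 0.63 (adjusted p = 1.17e-05, 1.61e-06 and 1.04e-05).

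Of the 108 differences between aSma-EYFP and supporting cells of 18 other tested smooth muscle genes, 59 were higher and 2 lower, beside 13.7% and 12.6% of all clusters. Their median was 0.31 to 0.89 over the 6 contrasts. Of the 78 differences of 13 non-muscle paralogs of the members, such as *Actb* and *Myh9*, 43 were higher and 3 lower. Of the 90 differences of 15 striated muscle genes, 32 were higher and 6 lower. The excess of higher calls over supporting cells was therefore not particular to smooth muscle genes. *Itga8*, an integrin chain, read 9.63, 9.94 and 9.68 in XX aSma-EYFP cells of E13.5 against 5.72, 5.76 and 5.75 in supporting cells, and differed by 2.52 to 4.01 over the 6. *Csrp2*, a LIM domain protein of smooth muscle, differed by 1.85 to 2.86, and *Prkg1*, the cyclic GMP-dependent kinase that relaxes smooth muscle, by 1.51 to 2.07. Against Flk1-mCherry cells 26 of 108 of the smooth muscle differences were higher and 18 lower, near the 18.3% and 14.7% of all clusters. For the non-muscle paralogs 10 of 78 were higher there and 36 lower, and for the striated muscle genes 28 of 90 higher and 6 lower. Between XY and XX at E13.5, 7 of the 18 were higher and 0 lower in aSma-EYFP cells, beside 5.73% of all clusters, led by *Pdlim3*, a muscle cytoskeletal adaptor, with 1.77 (adjusted p = 3.8e-15). In supporting cells 5 of the 18 were called, no larger a share than the 30.9% of all clusters.

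Across the 24 group means, the members fell into loose sets. *Tagln* and *Cnn1* had a Pearson correlation of 0.92, *Acta2* and *Tpm2* and likewise *Tpm2* and *Cald1* of 0.91, and *Cnn1* and *Des* of 0.87. *Myh11* followed *Myl9* with 0.83 and *Mylk* with only 0.39, and the lowest of all pairs was *Myl9* with *Mylk*, at 0.38. These are descriptions over 24 means that share cell types, lines and arrays. The genes with patterns most like *Acta2* were *Creb3l1* (0.968), *Alcam* (0.966), *Col3a1* (0.956), *Sgcd* and *Wnt5a* (each 0.955). For *Tagln* they were *Radx* (0.947), *Twist1* (0.932), *Bhlhe40* (0.925), *Lmna* (0.924) and *Unc5c* (0.920). For *Myh11* they were *Kcnd2* (0.946), *Gprc5c* with its 2 clusters (0.938 and 0.926), *Thsd7b* (0.933) and *Gabra4* (0.924). No other member was among these.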

How the data were processed

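RNA of sorted gonad cells was amplified in 1 round and hybridised to Affymetrix Mouse Gene 1.0 ST arrays. The authors made the deposited log2 intensity table with RMA in Partek Genomics Suite (probes adjusted for GC content and sequence, quantile normalization, median polish), run once on all 91 arrays and once without those of aSma-EYFP and the whole mouse, and whether every one of the 91 deposited columns comes from the first run is not given in the sources used here. Of 35557 clusters, 21789 were annotated to 1 gene, 1621 to several and 12147 to none in the platform annotation. Clusters over a log2 value of 6 in at least 2 arrays of a group entered 1 limma fit (version 3.58.1, R 4.3.3) over all 90 sorted-cell arrays in 30 groups, with 60 residual degrees of freedom and Benjamini-Hochberg adjustment within each contrast. The fit was tested on simulated data. Replicates were separate pools, grouped by the labels, and 1 sorted population is not reported here. The 10 members were named, with up to 4 called genes of each other list by size of difference and the 5 genes most correlated with *Acta2*, *Tagln* and *Myh11* over the 24 group means. Members and lists were chosen with earlier results of these data known, and the comparison of E13.5 with E11.5 after seeing the data. Alternatives were quantile normalization, other filters, the limits of the methods, array weights, a mean-variance trend, only the groups compared, a replicate block and leaving out each array.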

Additional observations from a re-analysis of the deposited data

Results flagged for a closer look

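The XY-XX difference changed between E11.5 and E13.5, tested as an interaction in the fit, for 5 of 40 combinations of member and cell type, 3 upward and 2 downward, beside 7.70% of all clusters. In supporting cells the change was -2.83 for *Myl9* (adjusted p = 8.29e-07), -1.08 for *Cald1* (adjusted p = 0.000548) and 0.90 for *Tpm2* (adjusted p = 0.0156), where the XY line also changed from Sry-EGFP to Sox9-ECFP, so that line and stage cannot be told apart. The *Tpm2* value was 0.76 without XX array 2 of E11.5 (adjusted p = 0.0684). In Flk1-mCherry cells it was 1.42 for *Tpm2* (adjusted p = 0.000293) and 0.86 for *Cald1* (adjusted p = 0.0269), and in a fit of only these groups neither was called (adjusted p = 0.3 and 0.593). The *Cald1* value also lost its call without any of 7 single arrays.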

How the results depend on the processing

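Of 150 called member differences, 108 kept their call without each array in turn, 42 lost it without some array and 0 changed direction. Leaving out 1 array gave 40 to 43 calls for aSma-EYFP against supporting cells, 45 to 48 for aSma-EYFP against Flk1-mCherry, 19 to 24 for XY against XX, 14 to 17 for successive stages, 4 to 6 for the change of the XY-XX difference and 17 to 23 for E13.5 against E11.5. A fit of only the groups compared, which has fewer samples, kept 121 and lost 29, and gave 8 calls for successive stages (15 in the fit of all groups). Array weights gave 27 for successive stages, and the cause was not tested. The limits of the methods, on the unadjusted p and a fold of 1.5, gave 10 for the change of the XY-XX difference, where 5 were called, and lost 23 calls in all, since differences under that fold are left out. In aSma-EYFP against supporting cells 1 call was lower by those limits (*Myl9*, -0.68 in XX at E13.5) and 1 with quantile normalization (*Myh11*, -0.35 in XX at E11.5). Quantile normalization lost 1 call, array weights 2, and no filter and the mean-variance trend 0. A limit of 7 on the log2 value left 135 of the 150 tested, all of them called. With the replicate block, which lost 2 calls, 19 of the 21 XY-XX calls held. Same-numbered arrays correlated over 0.1 in 13 of 36 pairs (-0.31 to 0.36), in all 3 pairs of 1 of 12 cell types and stages, and 21 of 36 correlated best with their own number, so the numbers were not taken to pair samples. A second cluster per gene was not run, since each member had 1. Signals near 6 limit *Acta2*, *Actg2*, *Cnn1* and *Des*, whose arrays were all over 6 in 14, 12, 12 and 9 of 24 groups. *Tagln*, with group means of 6.20 to 6.74 outside aSma-EYFP, and *Myh11* in Flk1-mCherry and Oct4-EGFP cells may also lie near a floor, which was not measured.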
